A study of Mus musculus with 2 samples.

Results

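The cells described here are 567 mammary basal cells that carried the most RNA of Vcan, Col11a1, Ramp1 and Defb1 in the library labelled Fgd5-ko, called state cells below. They were chosen as the top 10% by the summed CPM of these 4 genes (UMIs, the RNA molecules counted, scaled to 1000000 UMIs a cell) among 5667 basal cells of that library. A cell counted as basal when Krt5, Krt14, Acta2 and Tagln held at least 0.5% of its UMIs and Krt5 with Krt14 exceeded Krt8 with Krt18. The authors' table of cells lists 6064 cells of this library and 12652 cells in both libraries. Each state cell was set against the 3 other basal cells of the same library with the nearest total of UMIs, 1701 matched cells in all.

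The study profiled cells of the C57BL/6 mouse mammary gland, sorted as high for CD24 and positive for CD29, with the 10x Genomics 3' kit. It has 1 library whose genotype label is Fgd5-ko and whose title carries the word cko, and 1 library labelled WT. Both titles also carry P4, which the labels do not explain. Otherwise the labels state neither the age and number of the mice nor the promoter that drove the deletion. Fgd5, which codes for an exchange factor that activates the small GTPase Cdc42, went against its label: it stood at 4.01 CPM in all basal cells of the library labelled Fgd5-ko and at 0.824 CPM in those of the library labelled WT. Where the deleted exons lie is not given in the labels, so 3' tags may not test the deletion. With 1 library per genotype no difference has a replicate check and no test was possible. The intervals in brackets are exact, at 95%, and reflect the error of counting alone.

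Basal cells form the outer, contractile layer of the mammary ducts and lie on the basement membrane, part of which they make themselves. Versican, the product of Vcan, is a large chondroitin sulfate proteoglycan that binds hyaluronan in loose extracellular matrix. Col11a1 codes for a chain of collagen XI, a minor fibrillar collagen that sits within thicker collagen fibrils. Ramp1 is the accessory protein that turns the calcitonin receptor-like receptor into a receptor for calcitonin gene-related peptide, and Defb1 is a secreted beta-defensin.

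The values that chose the cells are given as a description. Vcan stood at 720 CPM (705 to 736) in state cells and 148 CPM (144 to 152) in matched cells. The state cells had a median of 670 CPM and a highest value of 3004 CPM, and the matched cells a median of 95.5 and a highest value of 776 CPM. Col11a1 stood at 178 CPM in state cells against 51.7 CPM in matched cells, Ramp1 at 245 against 82.1 CPM, and Defb1 at 44.9 against 16.8 CPM. Vcan dominated the sum: it gave 60.6% of the score UMIs of the state and more than all other score genes together in 398 of the 567 cells, against 29 cells led in this way by Ramp1, 4 by Col11a1 and 3 by Defb1. These shares compare 3' tag counts, which do not depend on transcript length but may differ in capture between genes.

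At least 3 of the 4 genes had a UMI in 506 of 567 state cells (89.2%) and in 654 of 1701 matched cells (38.4%). The lowest state cell had 821.6 CPM (18 UMIs of 21908) and the highest cell left outside had 821.4 CPM (20 UMIs of 24350). The 50 cells just inside had 477 CPM of Vcan and 201 CPM of Ramp1, and the 50 just outside had 442 and 207 CPM.

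**Figure D1:**
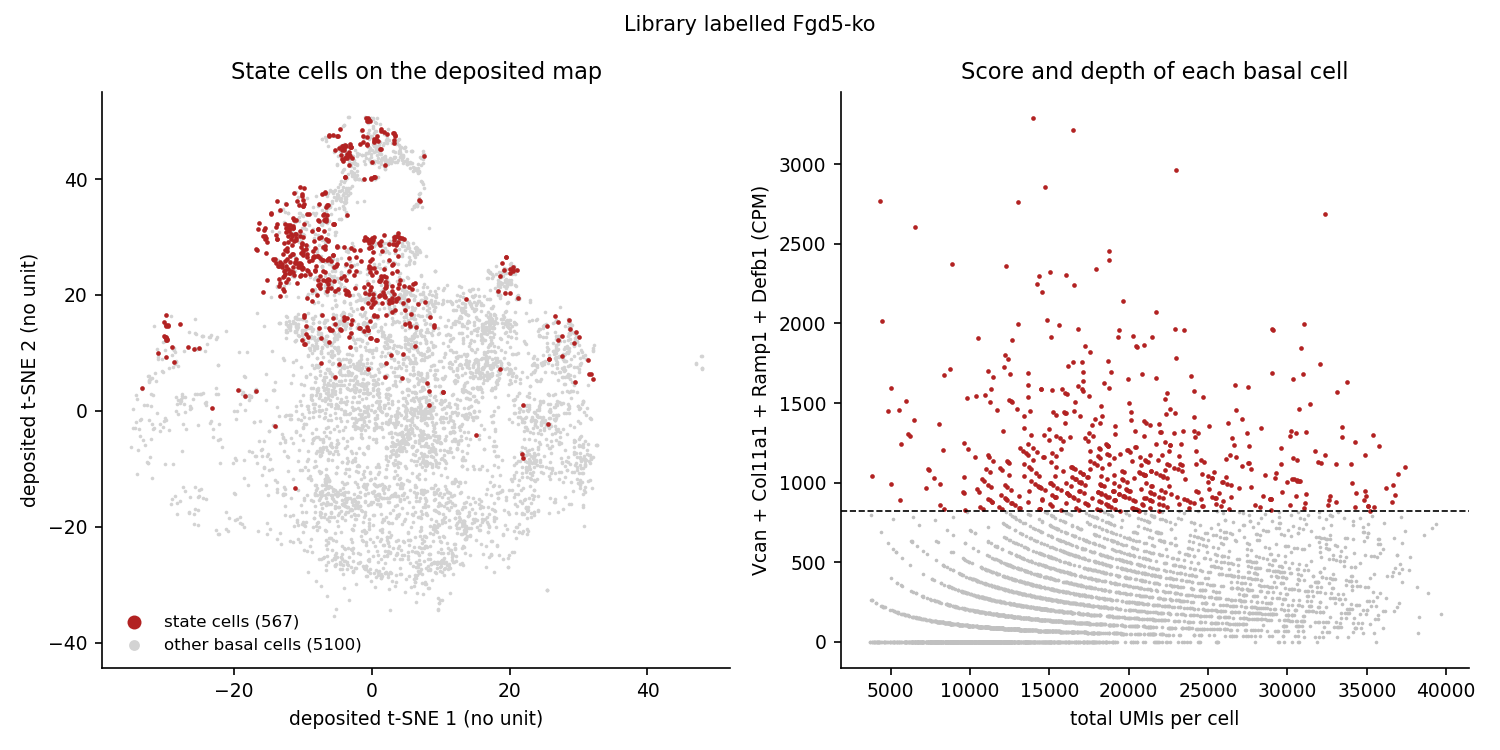
State cells on the authors' t-SNE map (left, coordinates without unit) and the summed CPM of the 4 score genes against total UMIs per cell (right, dashed line at the lowest state cell, 821.6 CPM), library labelled Fgd5-ko; each point is 1 cell. The 567 state cells gather in a few areas of the map and span 3846 to 37388 UMIs.

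The stretches of genome just upstream of 3 of the score genes and of Serpinb11, the gene with the next largest ratio after Col9a1 (below), are shown because these genes had higher levels in the same cells. They were copied from the RefSeq promoter table for GRCm38.p6, 250 bases up to the base before each gene's start, with capitals marking matches to a motif. Vcan lies at chr13:89742513-89742762 on the minus strand, Col11a1 at chr3:114030290-114030539, Ramp1 at chr1:91179572-91179821 and Serpinb11 at chr1:107362064-107362313, the last 3 on the plus strand.
Vcan: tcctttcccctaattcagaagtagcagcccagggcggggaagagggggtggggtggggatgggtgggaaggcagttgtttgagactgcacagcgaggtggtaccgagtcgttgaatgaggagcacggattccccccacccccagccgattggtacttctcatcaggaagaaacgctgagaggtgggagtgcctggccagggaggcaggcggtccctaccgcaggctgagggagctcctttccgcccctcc
Col11a1: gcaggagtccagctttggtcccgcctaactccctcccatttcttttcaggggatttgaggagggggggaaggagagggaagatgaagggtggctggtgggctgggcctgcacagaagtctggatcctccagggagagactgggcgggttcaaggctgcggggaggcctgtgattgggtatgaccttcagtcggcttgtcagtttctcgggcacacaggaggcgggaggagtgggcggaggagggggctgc
Ramp1: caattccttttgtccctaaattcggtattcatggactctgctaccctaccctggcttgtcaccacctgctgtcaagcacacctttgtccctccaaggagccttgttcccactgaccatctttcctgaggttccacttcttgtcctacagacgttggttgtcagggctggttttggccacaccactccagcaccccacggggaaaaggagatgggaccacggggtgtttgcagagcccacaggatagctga
Serpinb11: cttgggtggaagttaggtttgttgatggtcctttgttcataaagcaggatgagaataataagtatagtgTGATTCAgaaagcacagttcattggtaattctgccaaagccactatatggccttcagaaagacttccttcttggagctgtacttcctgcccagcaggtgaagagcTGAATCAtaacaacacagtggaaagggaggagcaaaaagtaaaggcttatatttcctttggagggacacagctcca
The motifs searched, on both strands, were TGANTCA (AP-1), GGAATG (TEAD factors) and CCGGAAG (ETS factors), and no matches overlapped in the windows shown. Serpinb11 held 2 matches to TGANTCA, and the windows of Vcan, Col11a1 and Ramp1 held no match to any of the 3. The window of Col9a1, which is not shown, held no match either. Over all 32851 windows of this length in the table, 6.75% held TGANTCA, 12.6% GGAATG and 6.91% CCGGAAG. Among the 12 of the 15 genes with the highest ratios that have a window, these motifs were found in 1, 0 and 2 genes. Among the 11 of the 15 genes with the lowest ratios they were found in 1, 2 and 1. A match is a run of letters and no measured binding site.

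All 10 basal markers were found in the state cells, several at lower levels. They summed to 13376 CPM in state cells and 18317 CPM in matched cells, with 5314 CPM in the lowest state cell. Krt5, Krt14, Acta2 and Tagln are among them and held at least 0.5% of UMIs by the rule. A floor for this sum was thus given by the choice of cells. Trp63, the transcription factor that maintains the basal lineage, stood at 111 CPM in state cells and 86.2 CPM in matched cells. Among the genes used to define basal cells, given as a description, Acta2 stood at 6621 against 7336 CPM, Krt14 at 1424 against 2361 CPM and Krt18 at 21.7 against 69.6 CPM. Median depth was 18860 UMIs in state cells and 18857 in matched cells, with 4220 and 4156 genes found per cell. The mitochondrial share of UMIs had a median of 5.24% in state cells and 4.51% in matched cells, and its part in the results below was not tested.

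Markers of other cell types were level or lower for most lists. The 8 endothelial markers summed to 8.53 CPM in state cells against 9.37 CPM in matched cells, the 6 pericyte markers to 2.42 against 10.98 CPM and the 6 myeloid markers to 2.87 against 4.97 CPM, with Csf1r, C1qa and Tyrobp at 0 in the state. The 4 erythroid genes were at 0 in the state and at 0.299 CPM in matched cells. The 6 luminal progenitor and alveolar markers were higher, at 35.8 CPM in state cells and 14.9 CPM in matched cells, of which the casein gene Csn3 gave 25.5 and 4.91 CPM. The 8 fibroblast markers were higher as well, at 412 CPM in state cells and 247 CPM in matched cells. Dcn, a small leucine-rich proteoglycan, made up nearly all of this sum, with 396 CPM in state cells and 228 CPM in matched cells (log2 ratio 0.80, 0.74 to 0.85). Each of the other fibroblast markers lay below 6 CPM in both groups of cells, Col1a1 at 2.60 against 2.69 CPM and Pdgfra at 2.78 against 2.60 CPM.

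As a rough guide to free RNA, barcodes outside the authors' table that carried endothelial markers were read, 407 barcodes with a median of 8454 UMIs. They had 27.4 CPM of Vcan (8.35% of barcodes with a UMI), 4.47 CPM of Col11a1, 6.90 CPM of Ramp1, 0.609 CPM of Defb1 and 6.29 CPM of Serpinb11. All 5 values lie below those of the matched basal cells. The 135 UMIs of Vcan lay in 34 barcodes, so these values may hold RNA of other sources too, which was not tested. Another 551 barcodes with fibroblast markers had 167 CPM of Vcan, a level like that of matched basal cells, but 6.65 CPM of Col11a1 and 31.3 CPM of Ramp1. Of the barcodes found in both libraries (34 in all), 2 belong to state cells. Leaving such barcodes out changed the direction of none of the 30 genes with the highest and lowest ratios (below).

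On the authors' t-SNE map state cells lay near each other. Of the 15 nearest basal cells of a state cell, a mean of 41.7% were state cells, against 8.01% for matched cells and 9.86% for all basal cells of the library. The same rule applied to the library labelled WT gave 607 cells with a mean of 38.5% and 10.2% for their matched cells. The genes behind the map are not stated in the labels or the table, and the score genes may be among them, so this is no separate check of the rule.

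How the 4 genes go together is described by leaving each out of the choice in turn. The 4 genes were chosen with earlier results of these data known. Higher left-out values were thus in part given by that choice and are no separate check. Chosen by the other 3 genes, the top 10% of cells had 448 CPM of Vcan and their matched cells 180 CPM (log2 ratio 1.32, 1.26 to 1.37, and 0.87 with the score from thinned cells). Col11a1 stood at 151 CPM in cells chosen without it and 55.5 CPM in their matched cells (1.44, 1.34 to 1.54), and Ramp1 at 192 against 87.1 CPM (1.14, 1.06 to 1.22). Defb1 was the least tied to the others, at 28.1 against 19.6 CPM (0.52, 0.32 to 0.72, and 0.85 without cells holding a Mki67 or Top2a UMI). Cells chosen without Vcan shared 58.7% with the state, so the membership leans on Vcan. In the library labelled WT, with cells chosen alike, the ratios were 1.84 for Vcan, 1.74 for Col11a1, 1.41 for Ramp1 and 0.70 for Defb1, the last with an interval of -0.24 to 1.60.

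Thinned to 3000 UMIs per cell, 382 basal cells had UMIs of both Vcan and Col11a1, 1.43 times the number that their separate shares give. All 6 pairs of score genes lay between 1.32 and 1.57 times. Pairs of a score gene with Serpinb11, which is not a score gene, lay between 1.48 and 1.75 times. Pairs with Slpi or Lgr5, both low in the state, lay between 0.44 and 0.73 times, whereas Slpi and Lgr5 occurred together at 1.36 times. Serpinb11, Slpi and Lgr5 were picked for their ratios in the state of this library, so the direction of their pairs was largely given by that choice. The thinned cells also share 1 library and free RNA, so all these ratios are a description.

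Of the 5328 genes whose mean reached 20 CPM, 160 were at least 1.5-fold higher in the state cells than in the matched cells and 169 at least 1.5-fold lower, a background of 3.00% and 3.17%. When the score came from cells thinned to 3000 UMIs, 333 of the 567 state cells were chosen again, and 87 genes were higher and 69 lower, of which 79 and 66 were among those counted here. The median log2 ratio over all these genes was 0.04. Since the rule chose the cells on expression in the same library, the ratios below describe the state, and the library labelled WT serves as the data that took no part in choosing the genes named, although its cells were chosen by the same 4 genes. There the same rule called 198 of 4705 genes higher (4.21%) and 198 lower (4.21%).

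The 15 genes with the highest ratios code for products of several kinds. Col9a1, a chain of the fibril-associated collagen IX, stood at 77.6 CPM in state cells against 22.2 CPM in matched cells (log2 ratio 1.81, 1.66 to 1.95). In the library labelled WT it stood at 80.3 against 14.5 CPM (2.47, 2.21 to 2.74). Serpinb11, a serpin of the intracellular clade B, stood at 155 against 44.9 CPM (1.79, 1.69 to 1.89) and, in the library labelled WT, at 145 against 17.8 CPM (3.03, 2.81 to 3.25). Single state cells had a median of 68.4 CPM of Serpinb11 and a highest value of 1482 CPM, and matched cells a median of 0 and a highest value of 1104 CPM, so the cells overlap widely.

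Fbln2, a fibulin that binds versican, had 453 CPM in state cells and 181 CPM in matched cells (1.32, 1.27 to 1.38), and 265 against 76.0 CPM in the library labelled WT. Matn2, a matrilin of pericellular matrix, had 87.2 against 36.3 CPM (1.26). The secreted genes Serpinf1, which codes for pigment epithelium-derived factor, Igfbp4, a binding protein of insulin-like growth factors, and Crispld1 had log2 ratios of 1.33, 1.33 and 1.35. Opcml, a cell adhesion molecule anchored in the membrane by lipid, stood at 34.3 against 13.02 CPM, and Vldlr, a receptor for lipoproteins and reelin, at 52.1 against 19.5 CPM.

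Cdkn1c, an imprinted inhibitor of cyclin-dependent kinases, stood at 56.3 CPM in state cells against 17.6 CPM in matched cells (1.67, 1.51 to 1.84), and Gpx2, a glutathione peroxidase, at 101 against 37.6 CPM (1.42). Lbhd2, Gm33651, Tex36 and 1600014C10Rik had ratios of 1.40 to 1.60. Of these, 1600014C10Rik was far the most abundant, at 1307 CPM in state cells and 495 CPM in matched cells (1.40, 1.37 to 1.43). In the library labelled WT it was near the bottom of the measured range, at 13.9 against 7.09 CPM (0.97, 0.47 to 1.45).

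Slpi, a secreted inhibitor of leukocyte proteases, had the lowest ratio of all. It stood at 215 CPM in state cells against 1290 CPM in matched cells (log2 ratio -2.58, -2.64 to -2.52) and, in the library labelled WT, at 544 against 2050 CPM (-1.92). The median state cell had 0 CPM of Slpi and the highest 5924 CPM, and the median matched cell had 281 CPM and the highest 30178 CPM. With each cell thinned to 3000 UMIs, 20.6% of state cells and 56.7% of matched cells had a Slpi UMI (48.3% and 80.2% unthinned). Endothelial-marker barcodes of this library had 147 CPM, with a UMI in 25.3% unthinned. The level in state cells lies nearer to this value than to that of matched cells.

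Lgr5, the R-spondin receptor that marks a part of the basal cells, stood at 13.4 CPM in state cells against 50.3 CPM in matched cells (-1.91, -2.16 to -1.67), and at 16.9 against 60.8 CPM in the library labelled WT (-1.85). After thinning, 4.06% of state cells and 13.5% of matched cells had an Lgr5 UMI (17.1% and 45.1% unthinned). Endothelial-marker barcodes had 7.10 CPM (4.95 to 9.88), with a UMI in 4.18% unthinned, below the 13.4 CPM (11.3 to 15.7) of state cells. Tppp3, which promotes tubulin polymerization, stood at 12.3 against 58.1 CPM (-2.24), and Ntn4, a netrin that binds laminin, at 10.6 against 32.4 CPM (-1.61). Id3, an inhibitor of basic helix-loop-helix factors that BMP signalling induces, stood at 57.9 against 166 CPM (-1.52), and Ltbp2, a microfibril protein related to the latent TGF-beta binding proteins, at 43.1 against 116 CPM (-1.43). Map1b, a microtubule-associated protein, Scn7a, a sodium channel, and Fxyd6, a regulator of the sodium pump, had ratios of -1.54, -1.51 and -1.35.

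Chil1, a secreted chitinase-like protein, stood at 109 CPM in state cells against 308 CPM in matched cells (-1.49), and complement C3 at 17.1 against 48.4 CPM (-1.51). Atf3, a stress-induced transcription factor, stood at 921 against 2506 CPM (-1.44, -1.47 to -1.41), and the cytokine genes Cxcl16 and Tnfsf9 had ratios of -1.34 and -1.27. Creb5 closed the 15 lowest with -1.23.

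All 15 highest genes were also at least 1.5-fold higher in the state of the library labelled WT, and 14 of the 15 lowest at least 1.5-fold lower there. C3 was the exception, with a ratio of -0.53 (-1.04 to -0.05). With only the cells between the 25th and 75th percentile of UMIs there, 19 of the 30 genes passed 1.5-fold. Of the 160 genes higher in the state of the library labelled Fgd5-ko, 105 reached the level to be counted in the library labelled WT, where 80 were at least 1.5-fold higher and 0 at least 1.5-fold lower. These 80 are 50% of the genes higher in the library labelled Fgd5-ko and 40.4% of those higher in the library labelled WT. Of the 169 lower genes, 136 could be counted and 76 were at least 1.5-fold lower, 45.0% of the lower genes of the library labelled Fgd5-ko and 38.4% of those of the library labelled WT. Cd74 was the 1 gene of the 136 that was at least 1.5-fold higher there (0.98), where 1 state cell held 81 of 200 UMIs, and its ratio turned to -0.97 (-1.51 to -0.47) without cells holding RNA of other cell types.

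The pattern was also read by depth and by the leading score gene. When the state was divided into 4 groups by UMIs, each with its own matched cells, all 15 highest genes and 14 of the 15 lowest passed 1.5-fold in all 4 groups. In the 398 state cells led by Vcan and in the other state cells, all 30 genes kept the same direction. The 30 genes were picked for their ratios in these same cells, so both readings are a description and no separate check.

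**Figure D2:**
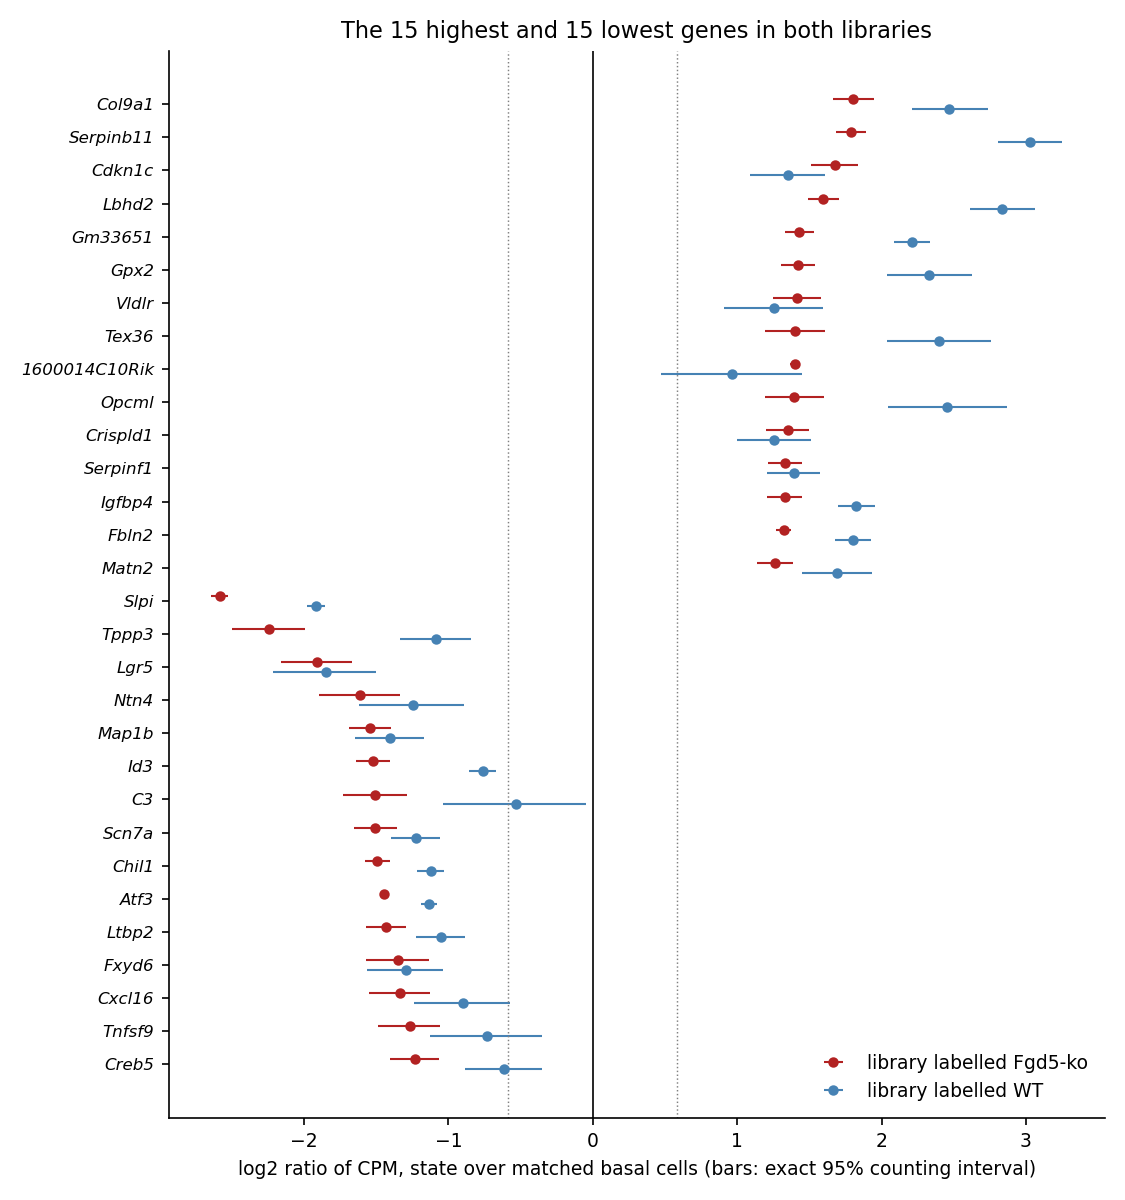
Log2 ratio of CPM in state cells over matched basal cells for the 15 highest and 15 lowest genes of the library labelled Fgd5-ko, in that library (red) and in the library labelled WT (blue); bars are exact 95% counting intervals and dotted lines mark 1.5-fold. All 30 point the same way in both libraries.

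The levels followed the score in steps. Basal cells of the library labelled Fgd5-ko were split into 1036 cells with no UMI of the score genes, 5 groups of the remaining cells outside the state and the lower and upper part of the state. From the first group to the last, Serpinb11 climbed through 5.24, 16.4, 23.4, 38.6, 49.0, 79.0, 111 and 201 CPM, and Fbln2 through 51.8, 86.4, 114, 163, 204, 294, 388 and 521 CPM. Slpi went the other way, with 4676, 2366, 1517, 1042, 749, 403, 241 and 188 CPM, and so did Krt17, a basal keratin, with 3398 CPM in the first group and 1004 CPM in the last. Each of the 12 genes followed in this way moved in 1 direction over all 8 groups in this library. These genes were picked for their ratios in the state, so a trend along the score was in part given by that choice. The last group differed from the first in the same direction for all 12 genes in the library labelled WT too, with uneven steps between. Median depth went up as well over the groups outside the state, with 10683 UMIs in the first and 19084 in the sixth, and its part in the steps was not tested.

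**Figure D3:**
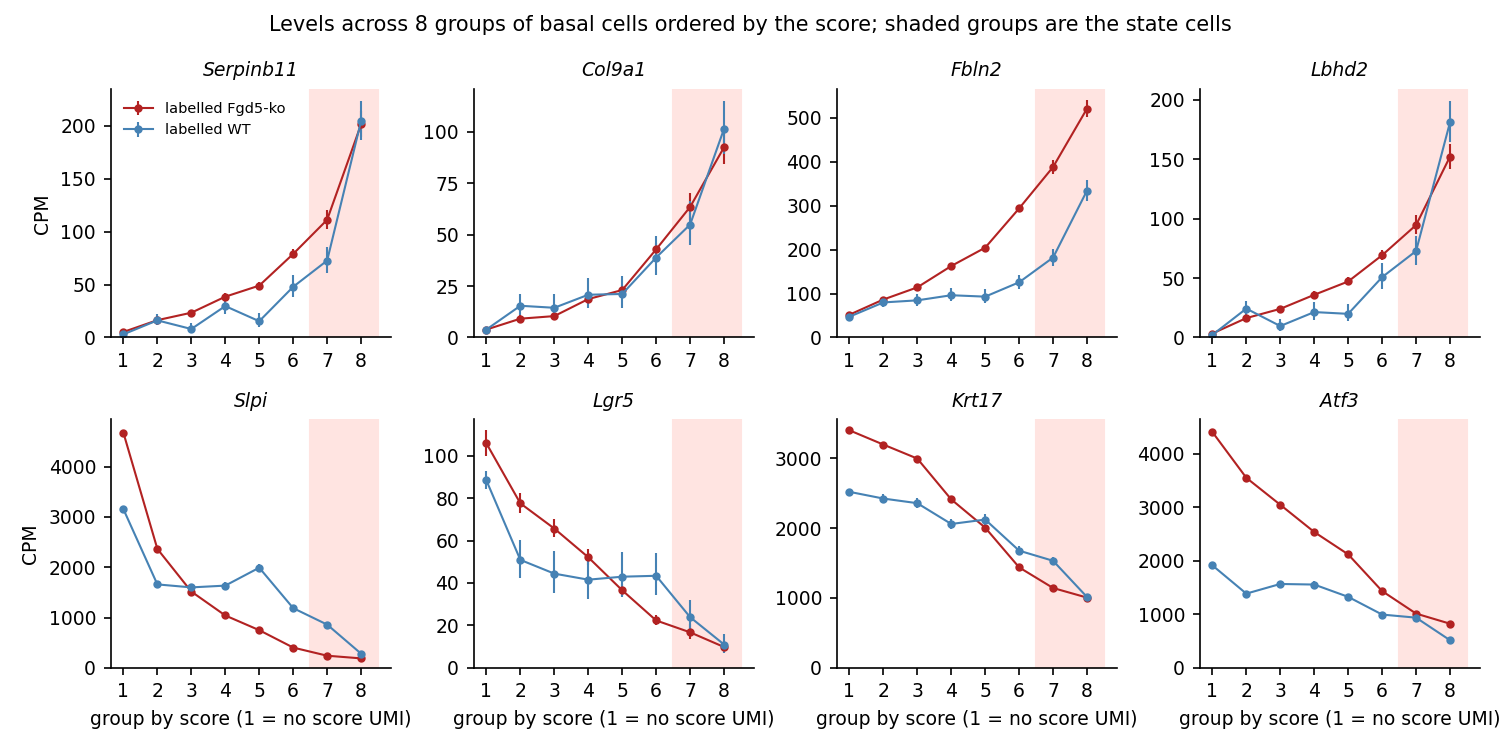
CPM of 8 genes (vertical axes from 0) in 8 groups of basal cells ordered by the score, for the library labelled Fgd5-ko (red) and the library labelled WT (blue); bars are exact 95% counting intervals and shaded groups are the state cells. In the library labelled Fgd5-ko the upper 4 genes climb at every step and the lower 4 decline, with Slpi at 188 CPM in the last group of the library labelled Fgd5-ko.

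Gene lists were read with a floor of 20 UMIs, at which 8.27% of 13426 genes were at least 1.5-fold higher and 8.30% at least 1.5-fold lower, with a median log2 ratio of 0.03. Against this background the basement membrane list was shifted up: 12 of 29 measured genes were higher and 3 lower, with a median of 0.32 in both libraries. Col4a1, a chain of the main network-forming collagen of basement membranes, stood at 1067 CPM in state cells and 459 CPM in matched cells (1.22), and at 1.45 in the library labelled WT. Col4a2, its partner chain, had a ratio of 0.87 and Lama1, a laminin alpha chain, of 0.84. The laminin chains of hemidesmosomes moved less, Lama3 at 0.31 and Lamb3 at 0.12, and Ntn4 was lower, as given above.

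Other collagen chains split both ways, with 5 of 14 higher, 4 lower and a median of 0.43. Col18a1 was higher (125 against 67.5 CPM, 0.89), and Col12a1 lower (18.8 against 33.9 CPM, -0.85). Of 25 measured fibrillar collagens and their processing enzymes 4 were higher and 2 lower, with a median of 0.15, and the prolyl hydroxylase P3h1 had a ratio of 1.11. Among 18 hyaluronan and versican partners 5 were higher and 3 lower. The higher members include Hmmr (0.81), which is also a G2 and M phase gene. Fbln1, a fibulin of the same family as Fbln2, stood at 59.8 against 27.5 CPM (1.12), whereas Has2, a hyaluronan synthase, stood at 23.6 against 36.2 CPM (-0.62, and -0.17 in the library labelled WT). The hyaluronan receptor Cd44 was within 1.5-fold, at 58.5 against 45.8 CPM. Of 21 ADAMTS proteases and TIMPs 2 were higher and 6 lower. Among the proteases known to cleave versican, Adamts1 stood at 186 CPM in state cells against 420 CPM in matched cells (-1.17), Adamts4 at 8.62 against 14.4 CPM (-0.74, -1.07 to -0.42) and Adamts15 at 0.628 against 1.68 CPM from 7 and 56 UMIs (-1.42). The intervals of Adamts5 (-0.43, -0.96 to 0.07) and Adamts20 (-0.28, -0.65 to 0.08) include 0. Adamts9 was higher, at 49.4 against 32.3 CPM (0.61). Of 16 integrins 3 were higher, with Itga2, the alpha chain of a collagen receptor, at 54.5 against 27.9 CPM (0.97).

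The partners of Ramp1 were scarce. Calcrl, the receptor that Ramp1 modifies, stood at 1.53 CPM in state cells and 1.02 CPM in matched cells, an interval of the ratio from -0.35 to 1.46. Ramp2 and Ramp3, its relatives, stood at 5.21 against 3.59 CPM and 4.67 against 5.84 CPM, and the ligand gene Adm at 6.19 against 11.3 CPM (-0.87). The list read here holds calcitonin family receptors and ligands and also signalling genes outside that family. Of its 11 measured genes 1 was higher, the adenylate cyclase gene Adcy7, and 1 lower, Adm.

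Growth factor and guidance genes held members in both directions. Nrg1, a ligand of ErbB receptors, stood at 93.7 CPM in state cells against 45.2 CPM in matched cells (1.05, and 1.55 in the library labelled WT), and Etv5, a transcription factor induced by receptor tyrosine kinases, at 76.4 against 38.3 CPM. Of 33 guidance genes 7 were higher and 3 lower, with Sema3b at 52.4 against 25.3 CPM (1.05, and 3.01 in the library labelled WT). Of 36 Wnt pathway genes 3 were higher and 11 lower. Wnt6, a secreted ligand, stood at 127 against 56.6 CPM (1.17), and Wif1, a secreted Wnt inhibitor, at 208 against 126 CPM (0.72), while Wnt10a stood at 43.4 against 67.5 CPM (-0.64). In the insulin-like growth factor list, Igfbp2 was higher beside Igfbp4 (0.77) and Igfbp7 lower (-0.74).

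In the NF-kB and inflammation list 13 of 20 measured members were lower by at least 1.5-fold and 0 higher, with a median of -0.66. For the WT label 7 of 19 were lower and 1 higher, with a median of -0.51. Nfkbia, the feedback inhibitor of NF-kB, stood at 310 CPM in state cells against 573 CPM in matched cells (-0.89), Relb, an NF-kB subunit, at 21.7 against 44.2 CPM (-1.03) and Vcam1, an adhesion molecule for leukocytes, at 45.1 against 93.6 CPM (-1.06). Of 15 secreted innate defence genes 8 were lower and 0 higher (median -0.77), in a state chosen in part by the defence gene Defb1, and 5 of 11 were lower and 1 higher for the WT label. Of 20 immediate early genes 7 were lower, 0 higher and 13 within 1.5-fold, with a median of -0.52. For the WT label just 1 of 20 passed 1.5-fold, downward, and the median was -0.42. Fos stood at 4662 against 7543 CPM (-0.69) and Dusp1, a phosphatase of MAP kinases, at 426 against 739 CPM (-0.79). Of 15 heat shock genes 1 was lower, Hspa1a, with a median of -0.40.

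Of 20 genes of the G2 and M phases 16 were at least 1.5-fold higher and 0 lower, with a median of 0.76, and of 1.41 in the library labelled WT with 19 of 20 higher. Mki67 stood at 128 CPM in state cells against 69.8 CPM in matched cells (0.87) and Kif11, a motor of the mitotic spindle, at 34.5 against 18.9 CPM (0.87). With cells thinned to 3000 UMIs, 21.7% of state cells and 13.1% of matched cells had a UMI of Mki67 or Top2a (41.6% and 27.9% unthinned), against 7.09% and 2.12% in the library labelled WT. S phase genes were not shifted in the library labelled Fgd5-ko, with 0 of 20 higher, 1 lower (Cdc6) and a median of 0.08. In the library labelled WT 12 of 19 were higher with a median of 0.85, a background there of 10.4% higher and 8.72% lower. The difference between the libraries was not tested. With all cells holding a Mki67 or Top2a UMI left out, the count of higher genes was 162 and of lower genes 194, and 117 and 138 of these were the same genes as before.

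The contractile and basal list was lower in part, with 5 of 22 genes lower, 0 higher and a median of -0.19. Krt17 stood at 1075 CPM in state cells against 2430 CPM in matched cells (-1.18), and Tpm2, a tropomyosin of the contractile apparatus, at 1259 against 2054 CPM (-0.71). Among mesenchymal genes 3 of 22 were higher and 8 lower, with Vim, the intermediate filament of mesenchymal cells, at 236 against 461 CPM (-0.97) and Postn, the secreted matrix protein periostin, at 153 against 300 CPM (-0.97). Genes tied to basal stem cells had 6 of 22 members higher and 3 lower, and they did not move as a group: Igfbp4 was higher and Lgr5 lower. Procr, a receptor that marks rare basal cells, stood at 5.92 CPM in state cells against 4.13 CPM in matched cells (0.52, 0.07 to 0.95), and at 0.693 against 1.56 CPM in the library labelled WT from 3 and 20 UMIs. Its ratio changed sign between the groups of state cells by UMIs in the library labelled Fgd5-ko (0.71, -0.17, 1.84 and -0.62). Fgd5 itself did not separate the state, with 4.13 CPM in state cells and 4.43 CPM in matched cells (-0.10, -0.61 to 0.38).

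Of 11 milk and alveolar genes 5 were higher and 0 lower. Mfge8, a secreted protein that bridges apoptotic cells and phagocytes and is abundant in milk fat globules, stood at 684 CPM in state cells against 364 CPM in matched cells (0.91), and the ratio of Csn3, given above, was 2.38 (2.09 to 2.66). Other markers of these cells were level, Elf5 at 0.808 against 0.898 CPM and Wfdc18 at 7.27 against 7.24 CPM, and within the list Trf, which codes for transferrin, stood at 86.6 against 108 CPM (-0.32) and Plin2, a coat protein of lipid droplets, at 68.1 against 49.9 CPM (0.45). For the WT label 2 of 8 members of the list were higher and 1 lower. The luminal identity list had 0 of 22 genes higher and 6 lower.

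A list that collects genes of other basal states described in these libraries had 8 of 12 members lower and 1, 1600014C10Rik, higher. It was drawn up from these libraries, so its direction is no separate evidence.

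**Figure D4:**
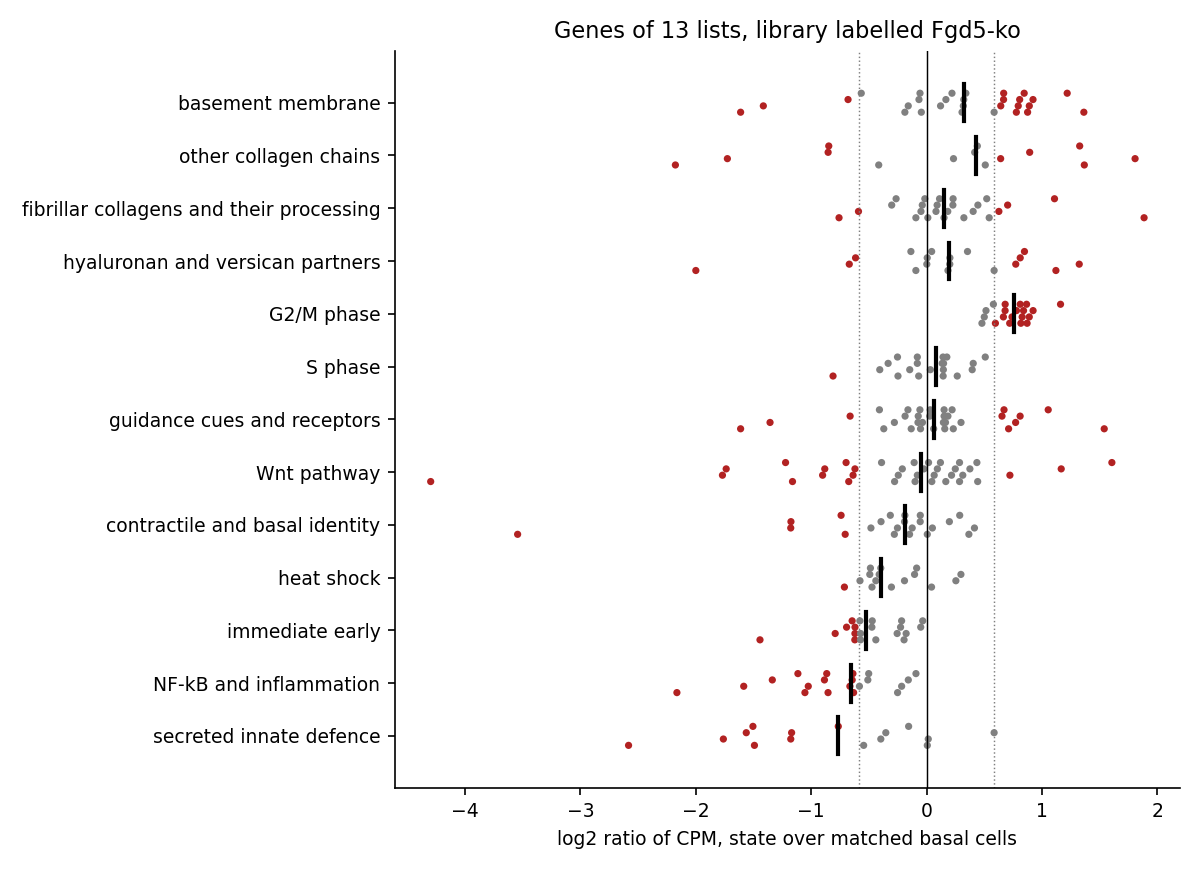
Log2 ratio of CPM in state cells over matched basal cells of the library labelled Fgd5-ko for the measured genes of 13 lists; each point is 1 gene, red beyond 1.5-fold (dotted lines), and black bars are list medians. G2 and M phase genes lie to the right (median 0.76) and secreted innate defence genes to the left (median -0.77).

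The score itself was higher in the library labelled Fgd5-ko. Over all basal cells Vcan stood at 201 CPM there and 53.1 CPM in the library labelled WT, Col11a1 at 62.1 against 38.6 CPM, Ramp1 at 93.1 against 43.2 CPM and Defb1 at 18.97 against 2.68 CPM. With cells thinned to 3000 UMIs, 32.6% of basal cells of the library labelled Fgd5-ko and 9.69% of those of the library labelled WT had a Vcan UMI, after 418 shallower cells of the WT label were left out. Unthinned, 3.67% of endothelial-marker barcodes of the library labelled WT had one at a median of 3624 UMIs, beside the 8.35% given above for the library labelled Fgd5-ko. At the threshold of 821.6 CPM, which 567 of 5667 cells reach by the rule, 117 of 6065 basal cells of the library labelled WT (1.93%, 1.60 to 2.31) also reached it. Median depth was 15863 UMIs in the basal cells of the library labelled Fgd5-ko and 4957 UMIs in those of the library labelled WT. The top 10% of the library labelled WT began at 354 CPM, which is 3 UMIs in its lowest cell, so membership is less certain there. With 1 library each, genotype, animal and library cannot be told apart.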

How the data were processed

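The authors deposited raw UMI counts per gene and barcode for each library (31053 genes), made with Cell Ranger (version 3.1.0 per the file headers). They also deposited t-SNE coordinates of the cells they kept, used here as scores without unit and only to find neighbours. Seurat 3.0 and the mm9 build appear in the submitters' processing notes; the sources used here do not give the annotation or the cell filter. The table's barcode suffix tells the libraries apart.

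Members, gene lists and the genes to be named were chosen with earlier results of these data known. UMIs were summed over state and over matched cells (11141028 and 33411549 UMIs for the Fgd5-ko label) and divided by all UMIs of those cells to give CPM. Log2 ratios carry exact conditional intervals, CPM exact Poisson and shares Clopper-Pearson intervals, at 95%. Counted genes had a mean of at least 20 CPM and a fold of at least 1.5. Named are Fgd5, Procr, the 15 highest and 15 lowest ratios and up to 4 genes with the largest ratios in each of 36 lists. Left out were the score and entry genes, genes of the mitochondrial genome, of ribosomal proteins and of haemoglobins, Xist and Y-linked genes. Trp63, Cd44, Lama3, Lamb3, Calcrl, Adcy7, Cdc6, Ramp2, Ramp3, Adm, Csn3, Elf5, Wfdc18, Adamts4, Adamts5, Adamts15, Adamts20, Col1a1 and Pdgfra were named after their values were seen. Lists needed 20 UMIs a gene. No doublet call was made, so doublets remain. Sums and matching were tested on simulated data. The simulation drew summed Poisson counts with no choice of cells by expression, so it checks the arithmetic alone. The work used Python 3.11.15 with SciPy 1.17.1, NumPy 2.4.6, matplotlib 3.10.9 and pandas 2.3.3.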

Additional observations from a re-analysis of the deposited data

Results flagged for a closer look

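Cd74, the invariant chain of MHC class II, had a log2 ratio of -0.75 in the state of the library labelled Fgd5-ko and of 0.98 in that of the library labelled WT. The WT value rested on few cells: 1 of 607 state cells held 81 of the 200 UMIs, and myeloid markers summed to 37.9 CPM in state cells and 20.3 CPM in matched cells there. Without cells holding RNA of other cell types the ratio for the Fgd5-ko label was -0.83 (-0.98 to -0.69) and that for the WT label -0.97 (-1.51 to -0.47), the same direction.

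Srxn1, which reduces oxidised peroxiredoxins, stood at 0.26 (0.06 to 0.45) for the Fgd5-ko label. For the WT label its ratio was -2.27 (-4.19 to -0.83), from 4 UMIs in state cells and 57 in matched cells. For both genes the difference between the libraries was not tested.

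Barcodes outside the authors' table also reached the score of the state, the value by which it was chosen. In the library labelled Fgd5-ko 73 of 524 basal barcodes outside the table (13.9%, 11.1 to 17.2) lay at or above the lowest state cell, and in the library labelled WT 7 of 425 (1.65%) did. The median depth of these 524 barcodes was 38562 UMIs.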

How the results depend on the processing

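The 30 genes with the highest and lowest ratios kept their direction and passed 1.5-fold in the library labelled Fgd5-ko under all 11 alternatives (330 values). They were picked for their ratios in this library, and the alternatives draw on the same basal cells, so this is no separate check. Of the list medians, 316 of 396 moved by at most 0.1. Direction was followed only for lists with a main median of at least 1.5-fold, of which 0 changed it. Most lists had smaller medians, whose sign was not followed. Among the genes named by list, direction was followed only where the main ratio was at least 1.5-fold, and 1 of these changed it. Hmmr, a G2 and M phase gene, was at -2.12 without cells holding a Mki67 or Top2a UMI. That set has few cycling cells by construction. Smaller ratios may have changed sign. The count of higher and lower genes was 87 and 69 when the score came from cells thinned to 3000 UMIs, 71 and 87 when the mean had to reach 50 CPM, 434 and 392 when it had to reach 5 CPM, and 2857 and 3663 with no filter. Scaling by the median ratio gave 140 higher and 207 lower genes. For the WT label 29 of the 30 genes passed 1.5-fold, and 19 when only cells between the 25th and 75th percentile of UMIs were used there; the cause was not tested.

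Left-out Vcan was at 1.39 against all other basal cells, 1.38 with 1 matched cell, 1.40 with the top 10% taken within groups of UMIs and 0.87 with the thinned score. Left-out Col11a1 was at 1.57, 1.12 with the thinned score, 1.66 without cells holding a Mki67 or Top2a UMI and 1.62 in the middle range of UMIs. Left-out Ramp1 was at 1.26, 1.24 for the top 5%, 1.23 within groups of UMIs, 0.99 with the thinned score and 1.28 without Mki67 or Top2a cells. Left-out Defb1 was at 0.72 for the top 5%, 0.80 for the top 20%, 0.72 with the thinned score and 0.85 without Mki67 or Top2a cells. The cause of these shifts was not tested. Leaving out barcodes found in both libraries, or cells with RNA of other cell types, was added after seeing the data; these gave 161 and 165 higher and 167 and 185 lower genes. No paired analysis was possible because each genotype has 1 library. With 3000 UMIs a cell, single score genes rest on few molecules.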

Other observations

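The remaining lists are given by their counts in the state of the library labelled Fgd5-ko, beside the 8.27% and 8.30% of all genes that were at least 1.5-fold higher and lower. Of 16 p53 targets 0 were higher and 5 lower, with Cdkn1a, an inhibitor of cyclin-dependent kinases, at 81.5 CPM in state cells against 181 CPM in matched cells (log2 ratio -1.15, and -0.72 in the library labelled WT). Of 19 interferon response genes 1 was higher and 3 lower, with the membrane protein gene Ifitm3 at 1419 against 2151 CPM (-0.60 in both libraries). Antigen presentation had 0 of 18 higher and 3 lower.

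In the unfolded protein and integrated stress response list 3 of 17 were higher and 2 lower, with the chaperone gene Hsp90b1 at 609 against 388 CPM (0.65, and 0.42 in the library labelled WT). TGF-beta signalling had 4 of 27 higher and 4 lower, with Nrep at 86.2 against 43.4 CPM (0.99, and 1.22 in the library labelled WT). Cyr61, a matricellular YAP target, stood at 436 against 235 CPM (0.89) but at 0.19 in the library labelled WT, where the list had the same counts, 2 of 22 higher and 1 lower. Proteoglycan core and sulfation genes had 3 of 32 higher, Dcn among them, and 4 lower, with Sdc4, a cell surface heparan sulfate proteoglycan, at 423 against 724 CPM (-0.77). Cholesterol synthesis had 0 of 20 higher and 1 lower, glycolysis and hypoxia 2 of 20 higher and 2 lower, and the Fgd and Cdc42 list 0 of 18 higher and 2 lower. The BMP list had 2 of 17 higher and 3 lower, the Notch list 1 of 16 higher and 1 lower, the NRF2 list 2 of 18 higher and 1 lower, the EGF and FGF list 3 of 21 higher and 5 lower, and the insulin-like growth factor list 4 of 13 higher and 2 lower.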
